A study of Sus scrofa with 12 samples.

Results

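FMR1, CYFIP2, NOVA1 and RBFOX2 are 4 genes of RNA-binding regulators and a partner protein, read by symbol from a table of 516 genes in pig heart. FMR1 encodes FMRP, an RNA-binding protein that represses translation and sits in transport granules, and whose loss causes fragile X syndrome in humans. CYFIP2 is a cytoplasmic protein that binds FMRP and is also a subunit of the WAVE complex, which switches on branched actin assembly downstream of Rac. NOVA1 and RBFOX2 bind introns and exons of precursor RNA and set which alternative exons are kept; NOVA1 uses KH domains and is best known from neurons, while RBFOX2 uses an RRM domain, recognises GCAUG and is made in many tissues, the heart among them. FMR1 is also broadly expressed, so tissue restriction describes NOVA1 and, in part, CYFIP2 better than the other pair.

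The study asked about regulation after transcription and matrix pathways in pigs with heart failure in which the ejection fraction is preserved. The libraries are 6 from pigs at 5 weeks of left ventricular pressure overload, imposed by stepwise closure of a cuff on the ascending aorta, and 6 from referent controls matched for age and weight. The labels give heart as the tissue without naming the chamber sampled, give no breed, sex or age, and carry the same cuff treatment text on all 12 libraries, so the groups follow the group label alone. Whether the controls had sham surgery is not stated. The series text gives 9 pressure overload and 6 control pigs, against 6 libraries of each group. The 12 libraries carry different sample titles, but it is not stated that each came from its own pig. The errors here therefore describe the spread between libraries. Polyadenylated RNA was sequenced, and the recovered library sizes ran from 24.3 to 31.9 M reads in pressure overload and from 19.5 to 30.2 M reads in controls.

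The 4 genes are in the table because of the same contrast that is described here. Every gene of the table has an unadjusted p under 0.05 for pressure overload against control in the authors' deposited table, which lists 3.39% of the 15235 genes that its adjusted p-values imply were tested; 375 of the 516, or 2.46% of those tested, were lower in pressure overload. All 4 members are in it and are lower, and since the table was chosen on this contrast, their group differences are given as a description with no test. None of the 4 is among the 6 genes, or 0.0394% of those tested, with an adjusted p under 0.05 in the authors' deposited table. The log2 fold changes in the authors' deposited table were -0.55 for FMR1, -1.46 for CYFIP2, -0.82 for NOVA1 and -0.24 for RBFOX2. In the authors' deposited table the unadjusted p stood at 0.000146 for FMR1, 0.000152 for CYFIP2, 0.000748 for NOVA1 and 0.0430 for RBFOX2, and the adjusted p was 0.172, 0.172, 0.456 and 1 in that order. FMR1 and CYFIP2 ranked 12 and 13 by p, NOVA1 ranked 25, and RBFOX2 ranked 462, close to the last listed gene, DLL4, at p = 0.04997 in the authors' deposited table. Genes beyond that threshold were not analysed here.

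**Figure D1:**
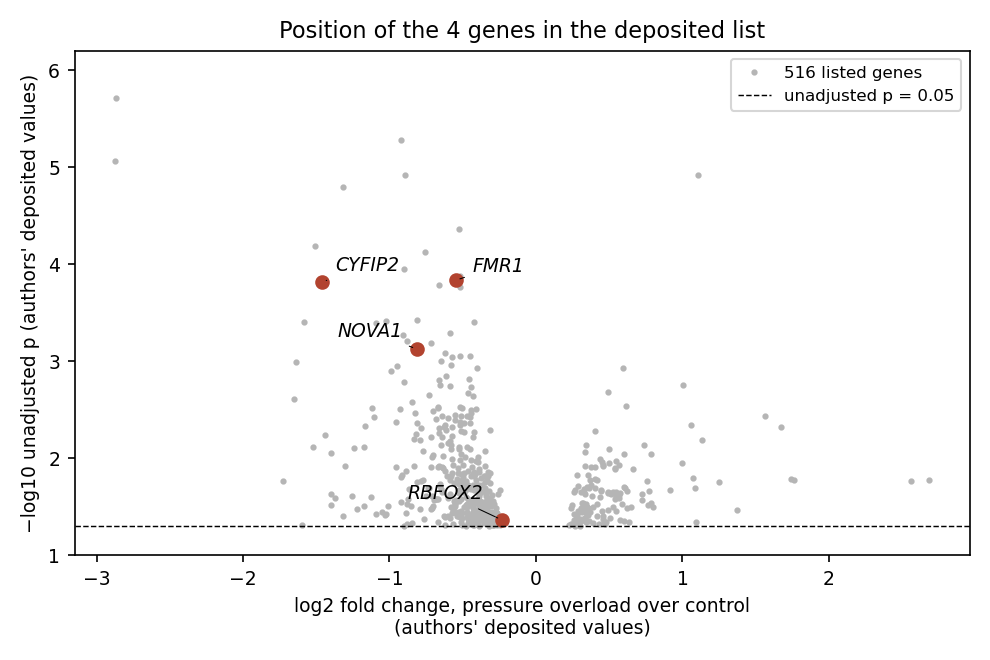
The log2 fold change (horizontal) and −log10 of the unadjusted p (vertical) of all 516 listed genes are the authors' deposited values, with the 4 genes in red and the listing threshold dashed. CYFIP2 lies far to the left at -1.46, FMR1 as high on the p axis at -0.55, and RBFOX2 just above the dashed line at -0.24.

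FMR1, the translational regulator, was lower in every pressure overload library than in any control library. It had 30.5, 37.3, 41.2, 27.1, 34.9 and 29.1 CPM (reads scaled by library size) in pressure overload replicates 1 to 6, against 48.5, 43.9, 45.0, 50.7, 46.5 and 57.7 CPM in control replicates 1 to 6. The highest pressure overload library, replicate 3, stood 2.68 CPM under the lowest control, replicate 2. The means were 33.3 ± 5.41 CPM in pressure overload and 48.7 ± 5.02 CPM in controls (SD, n = 6 each), a difference of -0.54 ± 0.11 (SE) in log2(CPM + 1), or -31.5% in mean CPM. Between 699 and 1179 reads stood behind each pressure overload value and between 879 and 1529 behind each control value. FMR1 lies on chromosome X from 120361232 to 120400282 (Sscrofa11.1, as annotated by NCBI RefSeq) and overlaps no other annotated gene.

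CYFIP2, the partner of FMRP that is also a subunit of the WAVE complex, had the largest difference of the 4 and the widest spread. It had 23.5, 14.8, 14.3, 27.9, 22.4 and 13.6 CPM in pressure overload replicates 1 to 6, against 27.7, 66.7, 50.8, 65.8, 28.9 and 81.5 CPM in control replicates 1 to 6. Control replicates 1 and 5 were at the level of the highest pressure overload library, and the other 4 controls were between 50.8 and 81.5 CPM, so no control lay between 28.9 and 50.8 CPM. The groups overlapped by 0.19 CPM, between pressure overload replicate 4 and control replicate 1. The means were 19.4 ± 5.97 CPM in pressure overload and 53.6 ± 21.8 CPM in controls (SD, n = 6 each), a log2 difference of -1.36 ± 0.31 (SE). The highest control was 2.94 times the lowest, and the same ratio within pressure overload was 2.04. Of the 375 lower genes, 9 had a larger log2 fold change downward in the authors' deposited table. CYFIP2 lies on chromosome 16 from 65852584 to 66001576; FNDC9 lies inside it, from 65901984 to 65912085, and without a stated strand setting a share of reads from FNDC9 cannot be separated.

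NOVA1, the neuronal-type splicing factor, was the least abundant of the 4 by reads and again separated the groups. It had 12.3, 7.68, 10.2, 8.29, 7.91 and 6.08 CPM in pressure overload replicates 1 to 6, against 18.8, 13.5, 15.4, 13.5, 17.0 and 14.5 CPM in control replicates 1 to 6. The gap between the groups was 1.150 CPM, between pressure overload replicate 1 and control replicate 4. The means were 8.75 ± 2.19 CPM in pressure overload and 15.5 ± 2.13 CPM in controls (SD, n = 6 each), a log2 difference of -0.78 ± 0.15 (SE), or -43.4% in mean CPM. Pressure overload replicate 6 rested on 148 reads and the deepest control value on 478 reads, so counting error alone gives a coefficient of variation of 6.62% in pressure overload and 5.12% in controls. NOVA1 lies on chromosome 7 from 72805138 to 72961257.

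RBFOX2, the splicing factor that is also made in heart muscle, differed least. It had 60.1, 65.6, 62.2, 59.9, 62.8 and 59.7 CPM in pressure overload replicates 1 to 6, against 60.9, 75.2, 73.0, 72.1, 86.1 and 68.1 CPM in control replicates 1 to 6. Of the 6 controls, 5 were above all pressure overload libraries, and control replicate 1 was inside their range. The means were 61.7 ± 2.29 CPM in pressure overload and 72.6 ± 8.33 CPM in controls (SD, n = 6 each), a log2 difference of -0.22 ± 0.07 (SE), or -15.0% in mean CPM. Of the 375 lower genes, 374 had a larger log2 fold change downward in the authors' deposited table. RBFOX2 lies on chromosome 5 from 11633523 to 11905325, where RefSeq annotates 44 transcripts, and a value per gene does not say which of them were made.

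**Figure D2:**
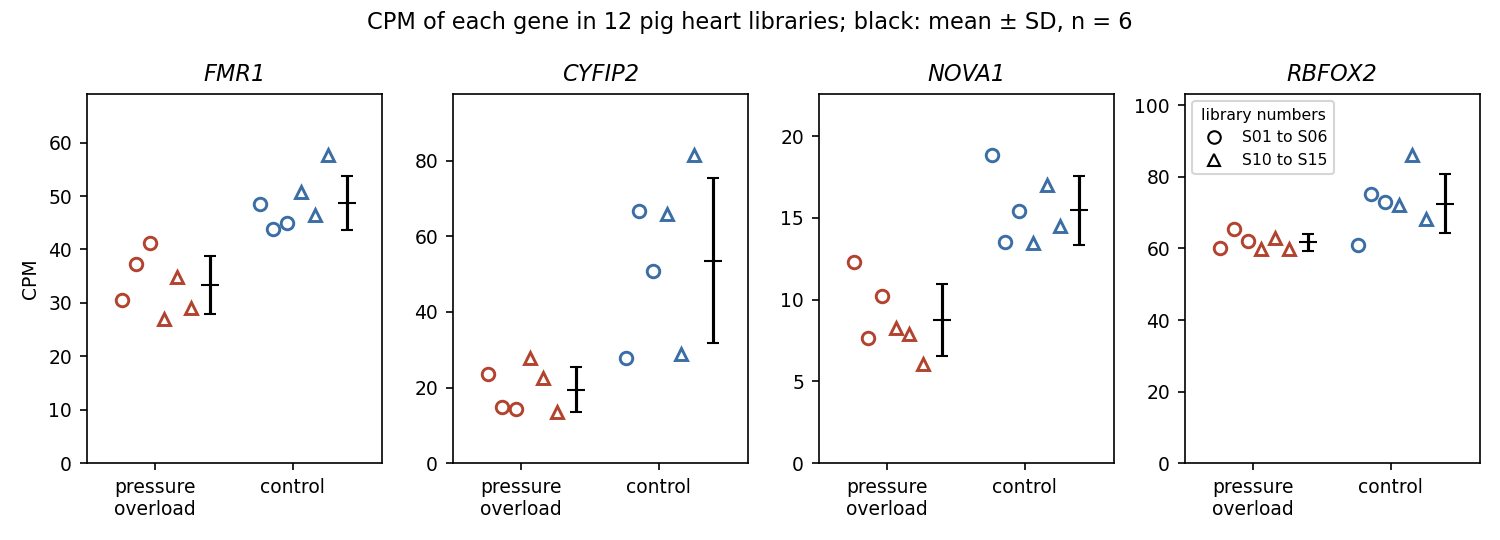
CPM of each gene on the vertical axis in the 6 pressure overload libraries (red, left) and the 6 control libraries (blue, right), with black bars for mean ± SD; circles are libraries S01 to S06 and triangles S10 to S15. FMR1 and NOVA1 show a gap between the groups of 2.68 and 1.150 CPM, CYFIP2 has 2 low controls at 27.7 and 28.9 CPM, and the RBFOX2 libraries of pressure overload lie between 59.7 and 65.6 CPM.

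Counted over the set, the libraries of the groups did not overlap for FMR1 and NOVA1, that is 2 of the 4 genes; over the whole table this held for 50 of 516 genes, or 9.69%, and for 39, or 7.56%, with pressure overload lower. Without control replicate 1 the groups separated for all 4 genes, and for 60 of 516 genes of the table. Without pressure overload replicate 4 they separated for 3 of the 4, CYFIP2 being added, and for 60 of 516 genes of the table. Once the libraries were rescaled by median-of-ratios factors, they separated for 0 of the 4 genes and for 53 of 516 genes of the table. Leaving out pressure overload replicate 3 gave 2 of the 4 again but 162 of the 516, so the share in the table depends on that library.

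The spread within pressure overload, but not within controls, set RBFOX2 apart from the others as a description. Its coefficient of variation was 3.72% in pressure overload, where counting error alone gives 2.45%, and 11.5% in controls. Only 1 of the 516 listed genes varied less across the pressure overload libraries, while 69 varied less across the controls. CYFIP2 varied by 30.7% in pressure overload and 40.8% in controls, and FMR1 by 16.2% in pressure overload and 10.3% in controls, beside medians over the listed genes of 21.4% in pressure overload and 21.0% in controls. NOVA1 varied by 25.02% in pressure overload and 13.8% in controls. Whether the variances differ between groups was not tested, since the spread entered the p-values on which the table was chosen. A difference as small as that of RBFOX2 passes such a choice more readily with a small spread.

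Scaling of the libraries bears on the smaller differences. CPM is a share of each library, and rescaling by median-of-ratios factors, which had to be computed on this mostly lower list, moves the median log2 difference of all listed genes by 0.32, from -0.41 as deposited to -0.10. The differences then were -0.22 for FMR1, -1.04 for CYFIP2, -0.48 for NOVA1 and 0.10 for RBFOX2, so the direction of RBFOX2 turns. Upper-quartile factors moved the median by 0.21 and gave -0.33 for FMR1, -1.151 for CYFIP2, -0.58 for NOVA1 and -0.01 for RBFOX2. Because the factors come from genes chosen for being different, the upward shift is built in, and these values do not say which scaling is right. In bulk tissue, fewer cells of a type and less RNA per cell cannot be told apart.

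Ratios of a pair of the genes within a library do not depend on its scaling. They describe how the 4 differences compared, and for every ratio the groups overlapped. The ratio of CYFIP2 to FMR1 was 0.771, 0.398, 0.346, 1.03, 0.643 and 0.469 in pressure overload replicates 1 to 6, against 0.572, 1.52, 1.13, 1.30, 0.622 and 1.41 in control replicates 1 to 6. It was lower in pressure overload by a log2 difference of -0.85 ± 0.35 (SE), yet only 3 of 6 pressure overload libraries were under the lowest control. The ratio of NOVA1 to RBFOX2 averaged 0.142 ± 0.0373 in pressure overload and 0.216 ± 0.0476 in controls (SD, n = 6 each), a log2 difference of -0.62 ± 0.19 (SE), with 5 of 6 pressure overload libraries under the lowest control. The ratio of FMR1 to RBFOX2 averaged 0.539 ± 0.0746 in pressure overload and 0.681 ± 0.122 in controls, a log2 difference of -0.33 ± 0.13 (SE), with 3 of 6 under the lowest control. The ratio of NOVA1 to FMR1 differed least among these, averaging 0.267 ± 0.0767 in pressure overload and 0.321 ± 0.0552 in controls, a log2 difference of -0.29 ± 0.19 (SE). The log2 difference was -1.18 ± 0.34 (SE) for CYFIP2 to RBFOX2 and -0.56 ± 0.39 (SE) for CYFIP2 to NOVA1. For CYFIP2 to NOVA1 only 1 of 6 pressure overload libraries was under the lowest control. These ratios compare groups and not transcript levels between genes, since CPM is not divided by transcript length. They rest on the same contrast as the table and carry no test.

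**Figure D3:**
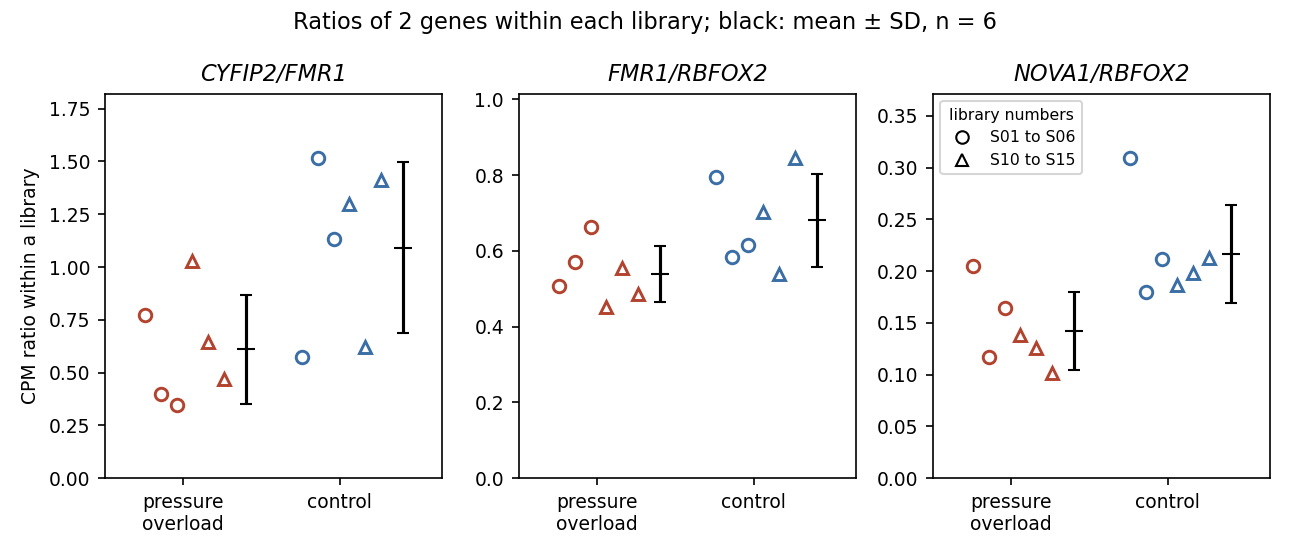
The vertical axis is the ratio of the CPM of a pair of genes within each library, for 6 pressure overload (red, left) and 6 control libraries (blue, right), with black bars for mean ± SD. All 3 ratios average lower in pressure overload, with overlapping groups: CYFIP2 to FMR1 averages 0.609 in pressure overload and 1.09 in controls, FMR1 to RBFOX2 0.539 in pressure overload and 0.681 in controls, and NOVA1 to RBFOX2 0.142 in pressure overload and 0.216 in controls.

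The libraries carry numbers S01 to S06 and S10 to S15 in the labels, 3 of each group in each run of numbers, and nothing says what the gap stands for. The difference between groups within each run is part of the contrast on which the table was chosen, and is described only. Whether that difference differs between the runs is a contrast on which the table was not chosen. The spread within groups did enter that choice, however, and it also enters the test of this contrast. FMR1 had a log2 difference of -0.75 ± 0.14 in S10 to S15 and -0.33 ± 0.13 in S01 to S06 (SE, n = 3 against 3 in each), with groups that did not overlap in either run. The gap of -0.42 ± 0.22 (SE; 95% interval -0.89 to 0.06) did not pass limma's interaction test (adjusted p = 0.240 over 512 genes), and it was -0.06 after median-of-ratios rescaling (adjusted p = 0.877). An exact permutation test of FMR1 alone, exchanging runs within each group, gave p = 0.05 (two-sided, 20 of 400 arrangements), where the smallest p the design allows is 0.005; over the 4 genes this p was not adjusted.

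CYFIP2 had almost the same difference in each run, -1.35 ± 0.53 in S10 to S15 and -1.36 ± 0.43 in S01 to S06 (SE), and 1 low control fell in each run. Its interaction was 0.01 with a 95% interval from -1.20 to 1.22 (limma adjusted p = 0.992; exact permutation p = 0.995, two-sided). NOVA1 had -0.93 ± 0.15 in S10 to S15 and -0.62 ± 0.22 in S01 to S06, and RBFOX2 had -0.30 ± 0.10 in S10 to S15 and -0.15 ± 0.10 in S01 to S06. Their interactions were -0.30 ± 0.31 and -0.15 ± 0.19 (SE), with limma adjusted p-values of 0.516 and 0.596 and exact permutation p-values of 0.335 and 0.36. For FMR1 and NOVA1 the groups did not overlap within either run, which follows from their separation over all libraries. For CYFIP2 they did not overlap within either run, while for RBFOX2 they overlapped in S01 to S06. How many genes of the table separate within a run was not counted, and separation is easier with fewer libraries.

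Beside these values, limma called 0% of the 512 genes for the interaction after Benjamini-Hochberg adjustment, and 24.8% (127 genes) had an unadjusted p under 0.05. Leaving out control replicate 4 gave 6 calls and leaving out pressure overload replicate 6 gave 1; no other single library gave any. Of the 375 lower genes, 86.9% had the larger difference in S10 to S15, with medians of -0.73 there and -0.25 in S01 to S06. The larger value in S10 to S15 for FMR1, NOVA1 and RBFOX2 is therefore shared with most of the lower genes. CYFIP2, at -1.35 and -1.36, had no such gap, though its interval is wide.

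**Figure D4:**
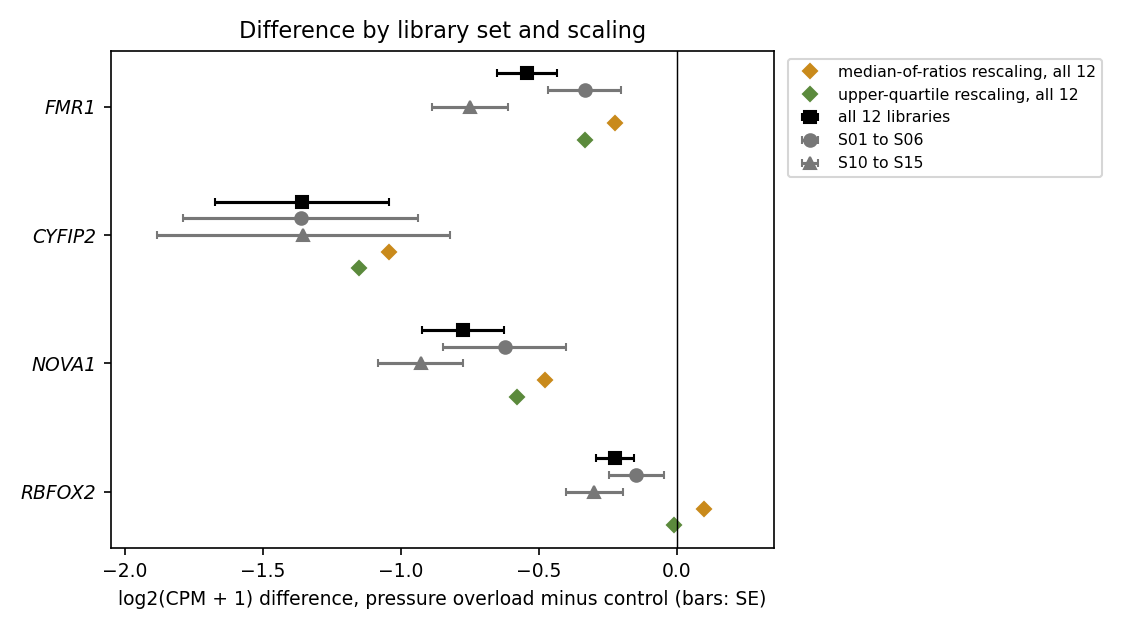
Log2(CPM + 1) differences, pressure overload minus control, on the horizontal axis for each gene: all 12 libraries (black square), S01 to S06 and S10 to S15 alone (grey, bars are SE), and all 12 after 2 kinds of rescaling (diamonds, no error drawn). FMR1 runs from -0.33 in S01 to S06 to -0.75 in S10 to S15, CYFIP2 is at -1.36 and -1.35 in the same runs and at -1.04 and -1.151 after rescaling, and RBFOX2 crosses 0 after median-of-ratios rescaling at 0.10.

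Within groups the 4 genes did not vary together detectably. After the group mean was removed from log2(CPM + 1), the 6 pairs had Pearson's r between -0.20 and 0.12 over 12 libraries, and none passed a permutation test within groups (smallest p = 0.492, adjusted p = 0.952 over 6 pairs). FMR1 and its partner CYFIP2 had r = -0.08 (permutation p = 0.790, adjusted p = 0.952) and Spearman's rho = -0.10 (permutation p = 0.754, adjusted p = 0.754). Without the 2 libraries farthest from the median of FMR1, r was -0.25. The splicing factors NOVA1 and RBFOX2 had r = -0.14 (permutation p = 0.594, adjusted p = 0.952) and rho = -0.14 (permutation p = 0.672, adjusted p = 0.754), and r = -0.24 without the 2 farthest libraries. Among all 130816 pairs of the 512 genes the median r was 0.10, and 90% of them lay between -0.64 and 0.78, so pairs in this table often covary more than these 4 genes do. With 12 libraries a moderate correlation would not be detectable.

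Taken by group, which was added after the pooled values were seen, CYFIP2 and NOVA1 had r = -0.91 in controls and 0.37 in pressure overload. The exact permutation p for controls was 0.0167 (n = 6), the adjusted p 0.200 over the 12 relations, rho was -0.77 (exact permutation p = 0.103), and r was -0.47 without the 2 controls farthest from the median, which are the 2 libraries low in CYFIP2. That relation rests on control replicates 1 and 5, which were low in CYFIP2 at 27.7 and 28.9 CPM and the 2 highest controls in NOVA1 at 18.8 and 17.0 CPM. FMR1 and RBFOX2 had r = 0.76 in pressure overload (exact permutation p = 0.0681, adjusted p = 0.408, n = 6) and -0.39 in controls. For FMR1 and CYFIP2, r was -0.56 in pressure overload (exact permutation p = 0.214, adjusted p = 0.855, n = 6). In controls it was 0.40 (exact permutation p = 0.446, adjusted p = 0.855, n = 6), so the pooled r joins values of opposite sign.

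By library, pressure overload replicate 6 was the lowest or next to lowest of its group in all 4 genes and lay under the group mean in 4 of 4. No control was below its group mean in all 4 genes. Control replicate 6 was highest in FMR1 and CYFIP2 but ranked 3 of 6 in NOVA1 and 2 of 6 in RBFOX2 from the bottom. Pressure overload replicate 4 was lowest in FMR1 and highest in CYFIP2 of its group.

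**Figure D5:**
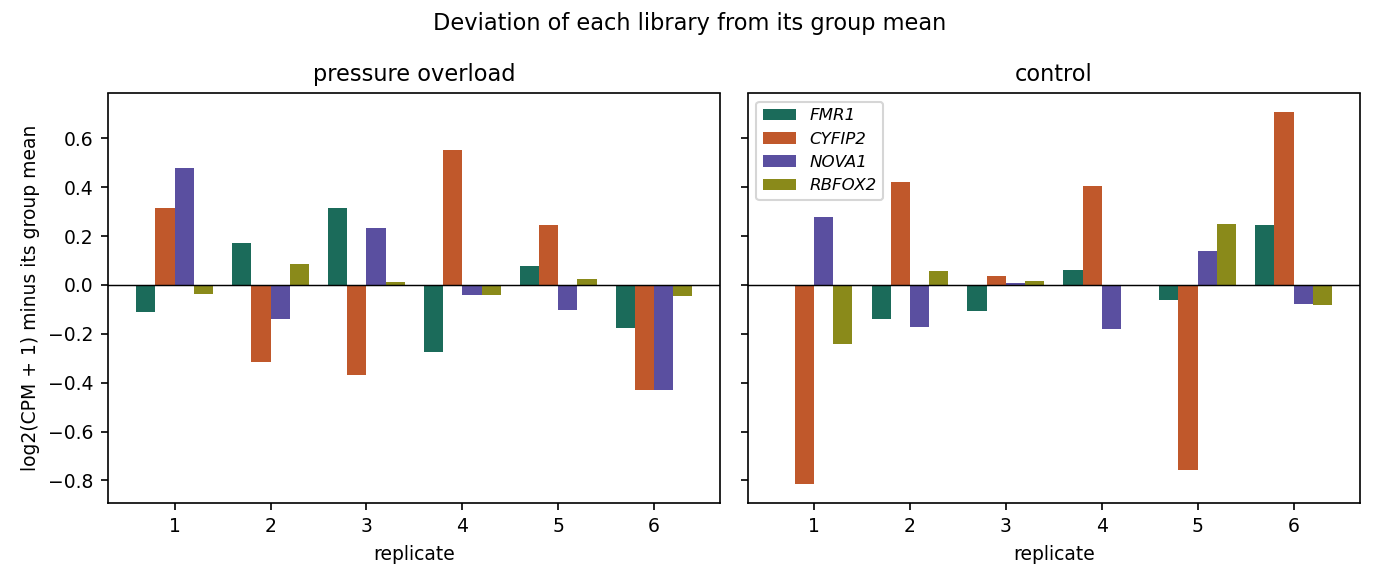
Bars give log2(CPM + 1) minus the mean of its own group for each gene (colours) in pressure overload replicates 1 to 6 (left) and control replicates 1 to 6 (right). The 4 genes deviate in mixed directions in 11 of the 12 libraries and all downward only in pressure overload replicate 6, and CYFIP2 has the longest bars, down to -0.82 in control replicate 1.

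The listed genes whose deviations were most like each member were found by Pearson's r over the 12 libraries after removing group means, and are given as a description with no p. For FMR1 they were FAIM, an inhibitor of Fas-driven cell death (r = 0.85), CREBBP, a histone acetyltransferase (0.83), and MMP11, a matrix metalloproteinase (0.82). For CYFIP2 they were NPNT, a matrix ligand of integrins (r = 0.87), USP15, a deubiquitinase (0.76), and the solute carrier SLC35F5 (0.74). NPNT had 12.8 ± 4.73 CPM in pressure overload and 38.6 ± 24.3 CPM in controls, whereas USP15 and SLC35F5 were higher in pressure overload, USP15 at 51.4 ± 10.2 CPM in pressure overload and 40.4 ± 7.31 CPM in controls and SLC35F5 at 85.3 ± 23.9 CPM in pressure overload and 63.8 ± 12.3 CPM in controls (SD, n = 6 each). For NOVA1 they were RSF1, a chromatin remodelling subunit (r = 0.84), ADAMTS6, a secreted metalloproteinase that overlaps CENPK in the annotation (0.84), and BAZ2B, a bromodomain protein (0.81). For RBFOX2 they were FBXO42, an F-box protein (r = 0.78), RETREG3, a receptor for turnover of endoplasmic reticulum (0.75), and NADSYN1, an NAD synthetase (0.75). No member was among the 3 genes nearest to another member.

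The wider pathway was described from gene lists written with earlier results of these data known. Of 32 genes of the FMRP family and FMRP-binding proteins, 4 were listed, beside 3.39% of all genes tested. Of these 4, 3 were lower and 1 higher, beside 72.7% lower of the genes listed. Their median log2 fold change was -0.45 in the authors' deposited table, beside -0.42 over all 516 genes. The 4 listed genes include FMR1 and CYFIP2, which were chosen from this table, so the count and median lean on them. Beyond FMR1 and CYFIP2 the listed genes were AGO4, an Argonaute protein of microRNA silencing, and RANBP9, a scaffold protein that binds FMRP. AGO4 was at 31.7 ± 2.65 CPM in pressure overload and 40.3 ± 8.30 CPM in controls (SD, n = 6 each). RANBP9 was at 49.3 ± 5.23 CPM in pressure overload and 40.4 ± 7.04 CPM in controls (SD, n = 6 each). The FMRP relatives FXR1 and FXR2 and the CYFIP2 relative CYFIP1 were not listed. AGO4 overlaps CLSPN and RANBP9 overlaps NOL7 in the annotation, which makes their values uncertain.

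Of 28 genes of the WAVE complex and actin nucleation, 27 of them found in the RefSeq annotation, 3 were listed, beside 3.39% of all genes tested. Of these 3, CYFIP2 and WASF3 were lower and ARPC2 higher, beside 72.7% lower of the genes listed. CYFIP2 is there as a member chosen from this table. The median log2 fold change of -0.53 in the authors' deposited table is the value of WASF3 itself, beside -0.42 over all 516 genes. WASF3, a WAVE protein that CYFIP proteins hold inactive, had 8.74 ± 2.35 CPM in pressure overload and 12.7 ± 1.47 CPM in controls, a log2 difference of -0.52 ± 0.16 (SE). ARPC2, a subunit of the Arp2/3 complex that WAVE activates, differed the other way, at 231 ± 28.2 CPM in pressure overload and 194 ± 8.17 CPM in controls. Its groups did not overlap, which held for 50 of 516 genes of the table, or 9.69%. ARPC2 was also the listed gene whose within-group deviations ran most against those of FMR1, at r = -0.78 over 12 libraries. The lowest r of each other member was further from 0, at -0.83 for CYFIP2 (GGNBP2), -0.80 for NOVA1 (LRRN3) and -0.88 for RBFOX2 (POC5). Each is the extreme among 512 genes and carries no p, so a relation of FMR1 and ARPC2 was not tested.

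Of 39 names written as splicing regulators, not all of them tissue-restricted, NOVA1 and RBFOX2 were the 2 listed, beside 3.39% of all genes tested. Both are members chosen from this table, so the count adds nothing about the list. Their relatives NOVA2, RBFOX1 and RBFOX3 and the CELF, MBNL and PTBP families were not listed. Of 34 names of messages bound by FMRP in mouse brain, 33 were found in the RefSeq annotation. Of the 34 names, 4 were listed, all lower, beside 3.39% listed of all genes tested and 72.7% lower of the genes listed. Their median log2 fold change was -0.48 in the authors' deposited table, beside -0.42 over all 516 genes. MAP1B, a microtubule-associated protein and long-known FMRP target in mouse brain, had 39.6 ± 9.91 CPM in pressure overload and 59.6 ± 11.4 CPM in controls. TSC2, which restrains mTORC1, had 71.7 ± 11.6 CPM in pressure overload and 92.9 ± 17.7 CPM in controls. DIP2A had 37.95 ± 9.30 CPM in pressure overload and 54.8 ± 16.01 CPM in controls. AGAP2, a GTPase-activating protein, had 14.8 ± 3.91 CPM in pressure overload and 20.1 ± 3.62 CPM in controls (SD, n = 6 each). TSC2, MAP1B and AGAP2 each overlap another annotated gene, so their values are uncertain, and DIP2A is not placed on a chromosome in that annotation, so its overlaps could not be checked. These are transcript levels, and FMRP binding or translation was not measured. None of the genes named from the 4 lists has an adjusted p under 0.05 in the authors' deposited table, and a gene missing from the table may still have differed.

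Of 59 markers of 10 cell types that heart tissue can hold, 1 was listed, beside 3.39% of all genes tested. It was KDR, an endothelial VEGF receptor, at 150 ± 35.5 CPM in pressure overload and 100.98 ± 27.5 CPM in controls (SD, n = 6 each). The RefSeq annotation held 9 of the 10 neuron, 7 of the 8 cardiomyocyte and 2 of the 3 erythroid symbols, so the others may not have been listable as written. No marker of neurons, Schwann cells, lymphocytes or cardiomyocytes was listed, and their levels were not analysed here, so the labelled tissue could not be checked against its markers, and the part of cell composition in the lower NOVA1 and CYFIP2 values was not tested.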

How the data were processed

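Pig heart poly-A RNA was sequenced in 12 libraries, 6 from pressure overload and 6 from controls, mapped to samples by the description number in each column name. Libraries were made with a directional kit, per the labels' protocols. Tools in the submitters' processing notes are STAR 2.7.2b, Subread 1.5.3 with featureCounts, Trim Galore 0.4.5, SAMtools 1.5 and FastQC, with the build Sscrofa11.1; for the annotation and strand setting, no statement was found in the labels or headers. The authors deposited a single table of CPM per library and group mean, a log2 fold change, a mean log2 CPM, a likelihood-ratio score, and p-values unadjusted and adjusted, per the file headers.

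Library sizes were recovered between 18 and 36 M reads by the step of the CPM values: on average 95.8% of values were whole reads, and all 48 member values were whole within 0.05 reads. On simulated libraries 12 of 12 sizes were recovered. As not all values are whole, no count model was fitted.

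Differences are of log2(CPM + 1). The interaction of group and library run was tested with an intensity trend in limma 3.58.1 (R 4.3.3) on 512 genes with at least 1 CPM in at least 6 libraries; all 4 members passed. On simulated data for this interaction with 512 genes, limma called 66% of 100 genes changed by 1 on the log2 scale, 96% of 100 changed by 2 and 1.60% of 312 unchanged genes. The simulated noise was independent between genes, and the changes were larger than the interactions of the 4 members. These shares therefore do not give the power for interactions of the members' size. Correlations used 100000 permutations within groups, or all 720 pairings within a group of 6. Python 3.11.15 was used. The named genes are the members, the 3 listed genes most like each, and listed members of the lists, up to 6 per list. Members and lists were chosen with earlier results of these data known. Intervals from reads cover counting error only. No sequence is shown.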

Additional observations from a re-analysis of the deposited data

Results flagged for a closer look

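None of the 4 genes had a library that stood apart from its group by Dixon's test at the 95% level. Among 50 gene and group combinations over the 25 named genes, 3 libraries did, and chance flags about 1 in 20. NADSYN1 was at 29.8 CPM in control replicate 5, where the next control was at 15.4 CPM. AGO4 was at 56.5 CPM in control replicate 6, where the next was at 41.3 CPM. DIP2A was at 85.2 CPM in control replicate 5, where the next was at 57.4 CPM.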

How the results depend on the processing

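With each library left out in turn, the log2 difference kept its sign, from -0.60 to -0.49 for FMR1, -1.52 to -1.22 for CYFIP2, -0.87 to -0.69 for NOVA1 and -0.27 to -0.17 for RBFOX2. The count of separated genes among the 4 ran from 2 to 4, beside 57 to 162 of the 516 listed genes. The count of interaction calls ran from 0 to 6, and the interaction itself from -0.53 to -0.32 for FMR1, -0.43 to 0.36 for CYFIP2, -0.47 to -0.16 for NOVA1 and -0.22 to -0.06 for RBFOX2. Correlations ran from -0.36 to 0.12 (FMR1, CYFIP2), -0.086 to 0.34 (FMR1, NOVA1), -0.087 to 0.12 (FMR1, RBFOX2), -0.46 to -0.01 (CYFIP2, NOVA1), -0.75 to 0.40 (CYFIP2, RBFOX2) and -0.41 to 0.18 (NOVA1, RBFOX2); no correlation passed, with a smallest adjusted permutation p of 0.150 for CYFIP2 and RBFOX2. Median-of-ratios rescaling, with factors taken from a mostly lower list and so an upward shift by construction, gave log2 differences of -0.22 for FMR1, -0.48 for NOVA1 and 0.10 for RBFOX2, and 0 separated members. It also gave interactions of -0.06 for FMR1 in place of -0.42, 0.36 for CYFIP2 in place of 0.01, 0.027 for NOVA1 and 0.21 for RBFOX2, and correlations of 0.21 (FMR1, CYFIP2), -0.43 (FMR1, NOVA1) and 0.36 (CYFIP2, RBFOX2). Upper-quartile rescaling gave -0.33 for FMR1 and -0.012 for RBFOX2. FMR1 differed by -0.33 in S01 to S06 alone and by -0.75 in S10 to S15 alone. Centring on group and run turned FMR1 with NOVA1 to -0.21. Without the 2 libraries farthest from the median of the first gene, r was -0.018 (FMR1, NOVA1), 0.13 (FMR1, RBFOX2) and 0.28 (CYFIP2, NOVA1). A pseudocount of 0.1 CPM took FMR1 with RBFOX2 to 0.0022. For changes other than rescaling and smaller sample sets the cause was not tested. No paired analysis was possible because the replicate numbers of the column names do not appear in the labels of the samples and no label ties libraries of the groups to each other. FMR1, CYFIP2 and RBFOX2 had at least 332 reads per library and NOVA1 at least 148; for RBFOX2 in pressure overload, counting error of 2.45% is a large part of the coefficient of variation of 3.72%.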
